A study of Mus musculus with 48 samples.

Results

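The ionotropic glutamate receptors of the AMPA and NMDA classes were followed through 10 subunit genes of the mouse brain: Gria1, Gria2, Gria3 and Gria4 of the AMPA class, and Grin1, Grin2a, Grin2b, Grin2c, Grin2d and Grin3a of the NMDA class. They were taken by gene symbol from a table of 54532 genes, and all 10 passed the filter on low values. RNA had been sequenced from the hippocampus or the brain hemisphere of wild-type male C57Bl6 mice. Each mouse had an osmotic minipump for 2 weeks. The 4 treatments were angiotensin II (0.7 mg per kg per day) with hydralazine (50 mg per kg) in the drinking water, angiotensin II alone, hydralazine alone with a saline pump, and the saline pump alone (vehicle). Angiotensin II is a peptide hormone that raises blood pressure, and hydralazine is a vasodilator that lowers it. With 6 libraries in each of the 8 groups there were 48 libraries. The labels give neither the age of the mice nor whether the libraries of a group came from separate mice, and the p-values below therefore describe spread among libraries, part of which may be technical.

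AMPA receptors carry most of the fast excitatory current at brain synapses. Each is an assembly of GluA subunits, encoded by the Gria genes, and the edited GluA2 subunit makes the channel nearly impermeable to calcium. NMDA receptors open only when glutamate, a co-agonist (glycine or D-serine) and depolarisation coincide. They need the Grin1 subunit, and the GluN2 partner sets their kinetics: in the rodent forebrain Grin2b is the juvenile form, Grin2a is added during postnatal maturation, Grin2c is known from cerebellar granule cells, and Grin2d from the diencephalon, the brainstem and interneurons. Grin3a encodes a glycine-binding subunit that lowers calcium permeability.

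The genes lie on different chromosomes except Gria1 and Grin2c. In the coordinates of the deposited table (GRCm38), Gria1 (ENSMUSG00000020524) is at chr11:57011387-57330244, Gria2 (ENSMUSG00000033981) at chr3:80681450-80802835, Gria3 (ENSMUSG00000001986) at chrX:41400854-41678601 and Gria4 (ENSMUSG00000025892) at chr9:4417896-4796234. Of the NMDA class, Grin1 (ENSMUSG00000026959) is at chr2:25291181-25319187, Grin2a (ENSMUSG00000059003) at chr16:9567898-9995560, Grin2b (ENSMUSG00000030209) at chr6:135713233-136173511, Grin2c (ENSMUSG00000020734) at chr11:115249169-115267243, Grin2d (ENSMUSG00000002771) at chr7:45831883-45878378 and Grin3a (ENSMUSG00000039579) at chr4:49661611-49845744. Gria1 and Gria3 are on the plus strand and the other members on the minus strand. Each value covers a whole gene, summed over its exons.

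Promoter sequence from RefSeq (GRCm38.p6) was matched for 5 of the 10 genes. A pair is shown because these genes stood on opposite sides of the comparison between regions below: Gria2, with more transcript in the hippocampus, and Grin2c, with less. Each is the 250 bases upstream of the first transcribed base, written 5′ to 3′ on the minus strand, at chr3:80802836-80803085 for Gria2 and chr11:115267244-115267493 for Grin2c. Capitals mark GGGCGG, the core of a GC box, searched on both strands with overlapping matches counted.
Gria2: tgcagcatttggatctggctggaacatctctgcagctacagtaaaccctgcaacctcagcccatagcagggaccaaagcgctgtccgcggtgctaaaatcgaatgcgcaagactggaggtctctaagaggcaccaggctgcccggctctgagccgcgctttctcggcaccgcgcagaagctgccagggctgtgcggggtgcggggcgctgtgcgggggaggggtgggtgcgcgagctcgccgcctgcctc
Grin2c: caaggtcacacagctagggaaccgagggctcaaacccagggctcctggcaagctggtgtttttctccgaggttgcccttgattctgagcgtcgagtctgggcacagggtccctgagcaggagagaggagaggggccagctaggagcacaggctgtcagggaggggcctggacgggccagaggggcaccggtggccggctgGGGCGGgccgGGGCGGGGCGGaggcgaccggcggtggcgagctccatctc
Grin2c held 3 GGGCGG matches, the last pair of them overlapping, in a window of 68.8% G and C. Gria2 held 0, in a window of 64.8% G and C. Gria4 and Grin1 also held 0, each with 58.8% G and C, as did Grin2d with 54.4%, whose window starts away from the annotated gene start. Across 32851 RefSeq promoter windows of this length 32.7% held GGGCGG and the median G and C content was 52.4%. The cyclic AMP response element TGACGTCA, searched on both strands, was in none of these windows and in 1.55% of all windows. A match is a description of letters and not a binding site.

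Values are FPKM (fragments divided by gene length in kilobases and by library reads in units of 1000000), so levels may be compared between genes as well as libraries. The length behind them is the sum of all annotated exon bases. It exceeds the longest transcript 2.27 times for Grin1 and 1.89 times for Gria3, against 1.03 times for Grin2b and Grin2c, so the order of FPKM between genes depends on that length. Reads in genes ranged from 1.21 to 21 M (M stands for 1000000) per hippocampal library and from 15.8 to 23.5 M per hemisphere library. In the hippocampus 6 libraries listed fewer than 16000 genes: replicate 5 of both drugs, 3 of angiotensin II, 3 and 4 of hydralazine, and 3 and 4 of vehicle. The other 18 listed 18914 to 23044 genes at a median of 18.7 M reads. The 24 hemisphere libraries listed 23161 to 25610 genes at a median of 19.0 M reads. Region and number of genes listed thus cannot be told apart, and the part of this in the region differences was not tested. The hydralazine library numbered 3 had the 1.21 M reads. For a 1 kb gene each of its reads counted as 0.722 FPKM, and it listed Gria4, Grin2c, Grin2d and Grin3a at 0. With 3 reads as the limit that a count of 0 allows, this library could hold up to 0.343 FPKM of Gria4, 0.430 of Grin2c, 0.325 of Grin2d and 0.176 of Grin3a. Vehicle library 3 of the hippocampus listed Grin3a at 0, with a limit of 0.0196 FPKM. These limits cover counting error only. Levels of these 4 genes in the groups concerned are therefore given per library or as medians.

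The tissues were checked against marker genes, listed here because they move with the comparison between regions. In vehicle libraries the hippocampal subfield markers summed to 489 to 676 FPKM in the hippocampus and 169 to 183 FPKM in the hemisphere, and 10 of 11 were higher in the hippocampus. In the same libraries cerebellar neuron markers summed to 28.8 to 81.9 FPKM in the hippocampus and 274 to 360.4 FPKM in the hemisphere, with 10 of 10 lower in the hippocampus. Gabra6, which defines cerebellar granule cells, was listed at 0 in every hippocampal vehicle library and averaged 29.5 ± 3.59 FPKM in hemisphere vehicle libraries (SD, n = 6). Striatal neuron markers summed to 79.8 to 107 FPKM in the hippocampus and 346 to 456 FPKM in the hemisphere, with 8 of 9 lower. The hemisphere libraries thus held transcripts that mark cerebellum and striatum. Markers of thalamus and midbrain were lower in the hippocampus for 6 of 8. Pan-neuronal markers summed to 984 to 1061 FPKM in the hippocampus and 874 to 1003 FPKM in the hemisphere (3 of 8 higher, 1 lower). The part of these regional markers in the values below was not tested. In bulk tissue, fewer cells of a type and less RNA per cell cannot be told apart.

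**Figure D1:**
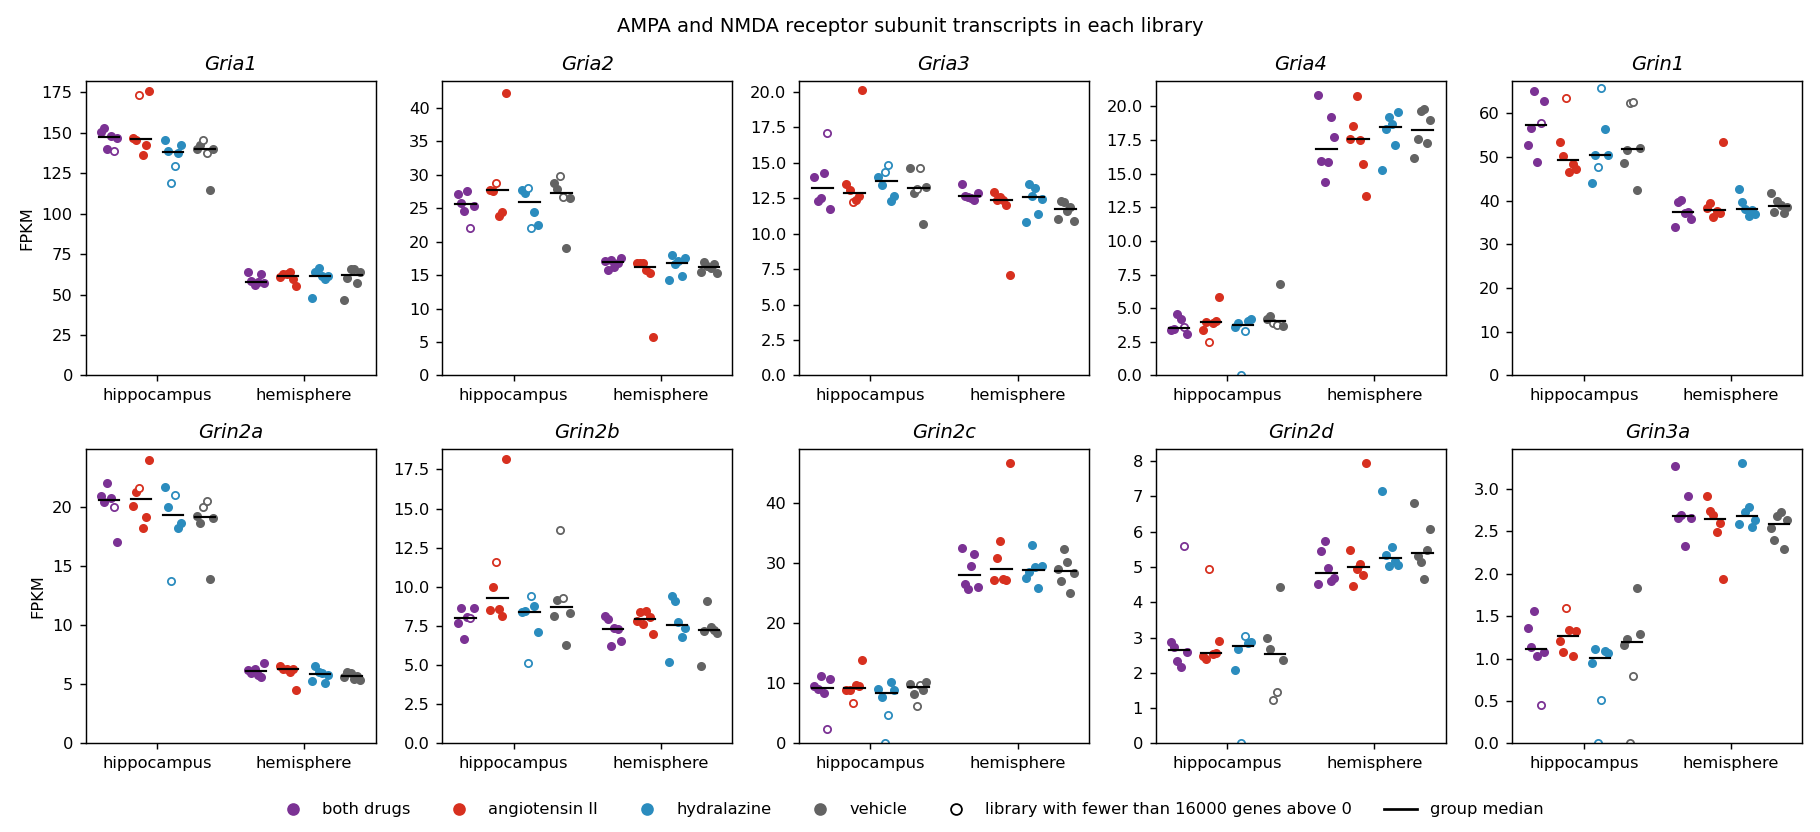
FPKM of each of the 10 subunit genes (linear axes from 0, a scale of its own per panel) in the 48 libraries, hippocampus left of hemisphere and the 4 treatments by colour; points are libraries, open where fewer than 16000 genes were listed above 0, and lines are group medians. Gria1 has the highest axis, and Gria1, Gria2, Gria4, Grin2a, Grin2c and, by a narrow gap, Grin3a separate by region.

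The hippocampus was compared with the hemisphere within each treatment, with limma (log2(FPKM + 0.5), adjusted over 17643 genes with the Benjamini-Hochberg method). In vehicle libraries 8 of the 10 subunit genes passed the threshold of 0.05, 4 of them higher in the hippocampus (Gria1, Gria2, Grin1, Grin2a) and 4 lower (Gria4, Grin2c, Grin2d, Grin3a). Among all genes tested 42.2% passed, 12.7% higher and 29.5% lower. The share of members is thus read against a background in which many genes differed. All genes had a median difference of -0.21 on the log2 scale in vehicle libraries, and the members' differences relative to it are 0.21 higher than the values below. Gria3 and Grin2b did not pass.

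Gria1 encodes the GluA1 subunit, whose trafficking to the synapse is used in hippocampal long-term potentiation. Its lowest, median and highest levels were 115, 140.0 and 146 FPKM in hippocampal vehicle libraries, against 46.3, 61.9 and 66.1 FPKM in hemisphere vehicle libraries. The groups did not overlap. The difference was 1.19 ± 0.08 (log2, SE), or 2.28-fold, with a limma adjusted p of 4.45e-17. Gria1 thus led the AMPA class in both regions, and more so in the hippocampus.

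Gria2, the subunit that limits calcium entry, had a lowest of 19.0, a median of 27.3 and a highest of 29.9 FPKM in hippocampal vehicle libraries, against 15.4, 16.2 and 17.0 FPKM in hemisphere vehicle libraries. All 6 hippocampal libraries were above the 6 hemisphere libraries. The difference was 0.68 ± 0.15 (log2, SE), or 1.60-fold (limma adjusted p = 0.000211), smaller than that of Gria1.

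Gria3, an X-linked subunit that pairs mainly with GluA2, was at 10.7, 13.2 and 14.6 FPKM (lowest, median, highest) in hippocampal vehicle libraries and at 10.9, 11.7 and 12.3 FPKM in hemisphere vehicle libraries. The ranges overlapped. Its difference of 0.17 ± 0.11 had a 95% interval of -0.05 to 0.39 and a limma adjusted p of 0.221. Relative to the median of all genes it was 0.38 higher, and with the trend on gene length removed from each library it was called in all 4 treatments (0.42 to 0.60). In vehicle libraries it also passed with library weights (0.18, limma adjusted p = 0.00571).

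Gria4 encodes a subunit with fast kinetics known from cerebellum, auditory nuclei and interneurons, and it went the other way. It was at 3.71, 4.05 and 6.82 FPKM in hippocampal vehicle libraries, against 16.1, 18.3 and 19.8 FPKM in hemisphere vehicle libraries. The lowest hemisphere library was above the highest hippocampal library. Gria4 was 3.83-fold lower in the hippocampus, a log2 difference of -1.94 ± 0.28 (limma adjusted p = 2.13e-07). Without the 6 hippocampal libraries with few genes the difference was -1.86.

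Of the NMDA class, Grin1, the obligatory subunit, was at 42.4, 51.8 and 62.5 FPKM in hippocampal vehicle libraries and at 37.2, 38.8 and 41.9 FPKM in hemisphere vehicle libraries. These ranges touched closely but did not overlap. The difference was 0.43 ± 0.09, or 1.35-fold (limma adjusted p = 0.000165), the smallest among the 8 called members. An antisense gene, Grin1os, shares 1307 exon bases with Grin1 and had a median of 0.228 FPKM in the hippocampus and 5.85 FPKM in the hemisphere. No source used here gives the strand setting of the authors' counting, and reads of the pair cannot be told apart.

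Grin2a, the GluN2 subunit of mature forebrain synapses, was at 13.8, 19.1 and 20.4 FPKM in hippocampal vehicle libraries, against 5.39, 5.65 and 6.03 FPKM in hemisphere vehicle libraries. The gap between the groups was wider than the range within either. Its difference of 1.61 ± 0.10, or 3.06-fold, was the largest upward one among the 10 genes (limma adjusted p = 4.58e-18). Grin2b, its juvenile counterpart, was at 6.28, 8.71 and 13.6 FPKM in hippocampal vehicle libraries and at 4.92, 7.21 and 9.07 FPKM in hemisphere vehicle libraries. The groups overlapped, and the difference of 0.32 ± 0.16 did not pass (limma adjusted p = 0.108, 95% interval -0.00 to 0.64). It passed with the length trend removed (0.52), with quantile scaling (0.44, adjusted p = 0.0144) and without hippocampal vehicle library 5 (0.41, adjusted p = 0.0375). That library held the highest thalamus and midbrain sum of the group, 67.5 FPKM, and the lowest hippocampal subfield sum, 489 FPKM.

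Grin2c, the granule cell subunit, was at 6.27, 9.37 and 10.3 FPKM in hippocampal vehicle libraries, against 25.1, 28.7 and 32.5 FPKM in hemisphere vehicle libraries. It was 3.13-fold lower in the hippocampus (-1.65 ± 0.38, limma adjusted p = 0.000438), and the groups stood well apart. Cerebellar markers moved the same way, as given above. So did the summed astrocyte markers, at 543 to 621 FPKM in hippocampal vehicle libraries and 632 to 757 FPKM in hemisphere vehicle libraries. The part of either cell type in the Grin2c difference was not tested. Gabra6 was listed at 0 in those 6 hippocampal libraries, while Grin2c was measured in each of them.

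Grin2d was at 1.23, 2.52 and 4.43 FPKM in hippocampal vehicle libraries and at 4.67, 5.39 and 6.80 FPKM in hemisphere vehicle libraries, 2.12-fold lower in the hippocampus (-1.09 ± 0.28, limma adjusted p = 0.00169). The predicted antisense gene Gm45441 shares 643 exon bases with it and was at a median of 2.86 FPKM in the hippocampus and 1.54 FPKM in the hemisphere. Grin3a was listed in the 6 hippocampal vehicle libraries at 1.16, 1.23, 0, 0.795, 1.84 and 1.29 FPKM, and its lowest, median and highest levels in hemisphere vehicle libraries were 2.30, 2.59 and 2.73 FPKM. Every hippocampal library was lower than every hemisphere library for both genes. Grin3a was 2.16-fold lower (-1.11 ± 0.23, limma adjusted p = 0.000127). Without the libraries with few genes the difference was -0.71 for Grin3a and -0.77 for Grin2d, and both still passed.

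**Figure D2:**
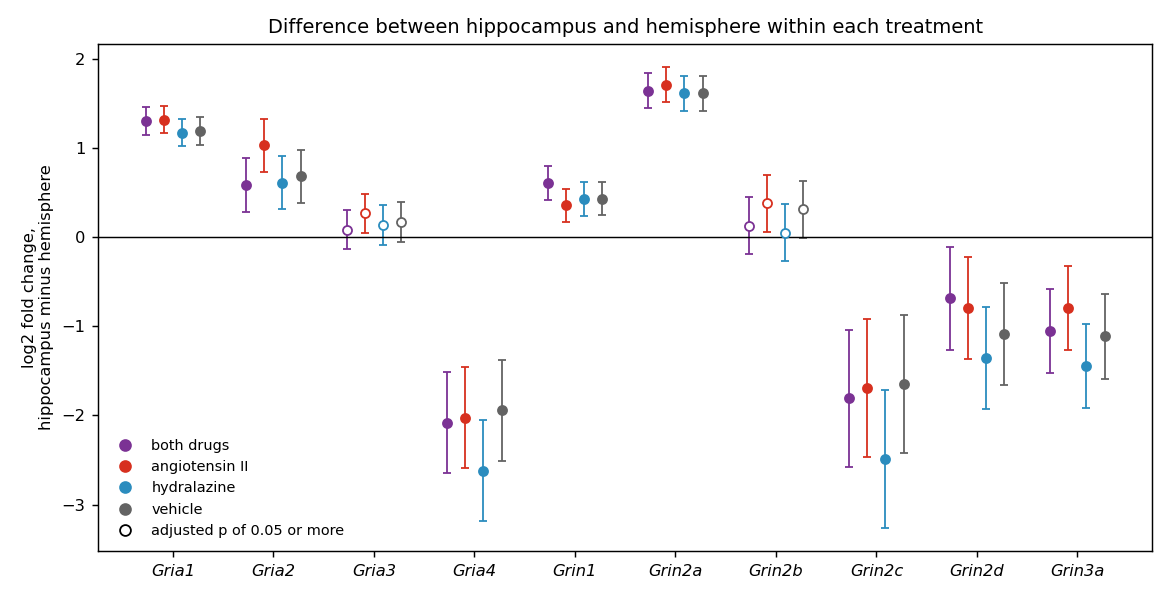
Hippocampus minus hemisphere difference (log2(FPKM + 0.5), limma estimate with its 95% interval) of the 10 subunit genes in each of the 4 treatments; open points did not pass the adjusted threshold and the horizontal line is no difference. Gria1, Gria2, Grin1 and Grin2a lie above 0 and Gria4, Grin2c, Grin2d and Grin3a below 0 in every treatment, while the points of Gria3 and Grin2b are open in all 4 treatments.

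The same 8 genes passed in each of the other treatments, in the same directions. Among all genes tested 42.4% passed in libraries of both drugs (13.6% higher, 28.8% lower), 37% in those of angiotensin II (12.4% higher, 24.6% lower) and 50.7% in those of hydralazine (12.4% higher, 38.4% lower). Gria1 differed by 1.30 with both drugs, 1.32 with angiotensin II and 1.17 with hydralazine. Grin2a differed by 1.64 with both drugs, 1.71 with angiotensin II and 1.62 with hydralazine, so the largest upward difference was of like size in all 4 treatments. Gria4 differed by -2.08 with both drugs, -2.03 with angiotensin II and -2.62 with hydralazine, where library 3 listed it at 0. Without the libraries with few genes Gria4 differed by -2.06 with hydralazine, and Grin2c by -1.64 with hydralazine, where all libraries gave -2.49. The ranges of the 2 regions were apart for 7 of the 10 genes with both drugs (40.2% of all genes), for 6 with angiotensin II (25.1%), for 8 with hydralazine (29.5%) and for 8 with vehicle (31.7%). Gria3 and Grin2b overlapped in all 4 treatments.

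Calls of 2 low genes rested on single libraries or settings outside vehicle. The Grin2d difference in angiotensin II libraries, -0.79 (limma adjusted p = 0.0240), was -0.69 without the angiotensin II library numbered 6 of each region (adjusted p = 0.0787) and did not pass with a pseudocount of 0.1 (adjusted p = 0.134). With both drugs the Grin2d difference of -0.69 (adjusted p = 0.0474) passed in 10 of 26 settings. Grin3a with angiotensin II, -0.80 (adjusted p = 0.00570), did not pass with a pseudocount of 0.1 (adjusted p = 0.0968). Conversely, Gria3 and Grin2b, not called with angiotensin II, passed there in some settings. Without the libraries with few genes they differed by 0.30 (limma adjusted p = 0.0145) and 0.35 (0.0342). Without the angiotensin II library numbered 6 of each region they differed by 0.03 (0.794) and 0.19 (0.354). Gria2 in angiotensin II libraries differed by 1.03, and by 0.68 without the library numbered 6 of each region, whose values are given below.

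Summed over the 4 Gria genes, AMPA subunit levels averaged 187 ± 17.3 FPKM in the hippocampus and 106 ± 8.89 FPKM in the hemisphere (SD over the 24 libraries of a region). The 6 Grin genes summed to 94.4 FPKM in the hippocampus (66.6 to 109.9) and 89.9 ± 7.50 FPKM in the hemisphere. In FPKM the AMPA sum was therefore 1.99 ± 0.18 times the NMDA sum in the hippocampus and 1.18 ± 0.14 times in the hemisphere. The NMDA sum was the larger in hemisphere angiotensin II library 6 (ratio 0.672), vehicle library 1 (0.978) and hydralazine library 1 (0.973). The lengths used exceed the longest transcript 2.27 times for Grin1 and 1.09 times for Gria1, the largest terms of the sums. Which sum is the larger in the hemisphere may therefore depend on the lengths, and no ratio was computed with others. No test was run on these sums.

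Within the AMPA sum, Gria1 took 76.5 ± 1.64% in the hippocampus and 56.8 ± 2.83% in the hemisphere. Gria2 took 14.2 ± 1.32% in the hippocampus and 15.1 ± 1.95% in the hemisphere, shares that differed by less than their spread. Gria3 took 7.29% in the hippocampus and 11.4% in the hemisphere. Gria4 took 2.06% in the hippocampus (0 to 4.50% over the libraries) and 16.7% in the hemisphere (14.4 to 18.4%). By mean share of FPKM, Gria4 thus ranked last of the class in the hippocampus and second in the hemisphere. The length used exceeds the longest transcript by more for Gria2 (15548 against 10371 bases) than for Gria4 (6305 against 5441 bases). The place of Gria4 above Gria2 in the hemisphere may therefore depend on the lengths, and no shares were computed with others.

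Within the NMDA sum, Grin1 took 57.0 ± 4.99% in the hippocampus and 43.2 ± 2.06% in the hemisphere. Among the GluN2 genes Grin2a led in the hippocampus, with 20.7 ± 1.77%, against 6.60 ± 0.82% in the hemisphere. Grin2c led in the hemisphere: its share was 8.90% in the hippocampus (0 to 12.9%) and 32.9% in the hemisphere (29.6 to 38.5%). Grin2b took 9.41% in the hippocampus and 8.34% in the hemisphere. Shares of FPKM are not shares of protein, and they depend on the gene lengths used.

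**Figure D3:**
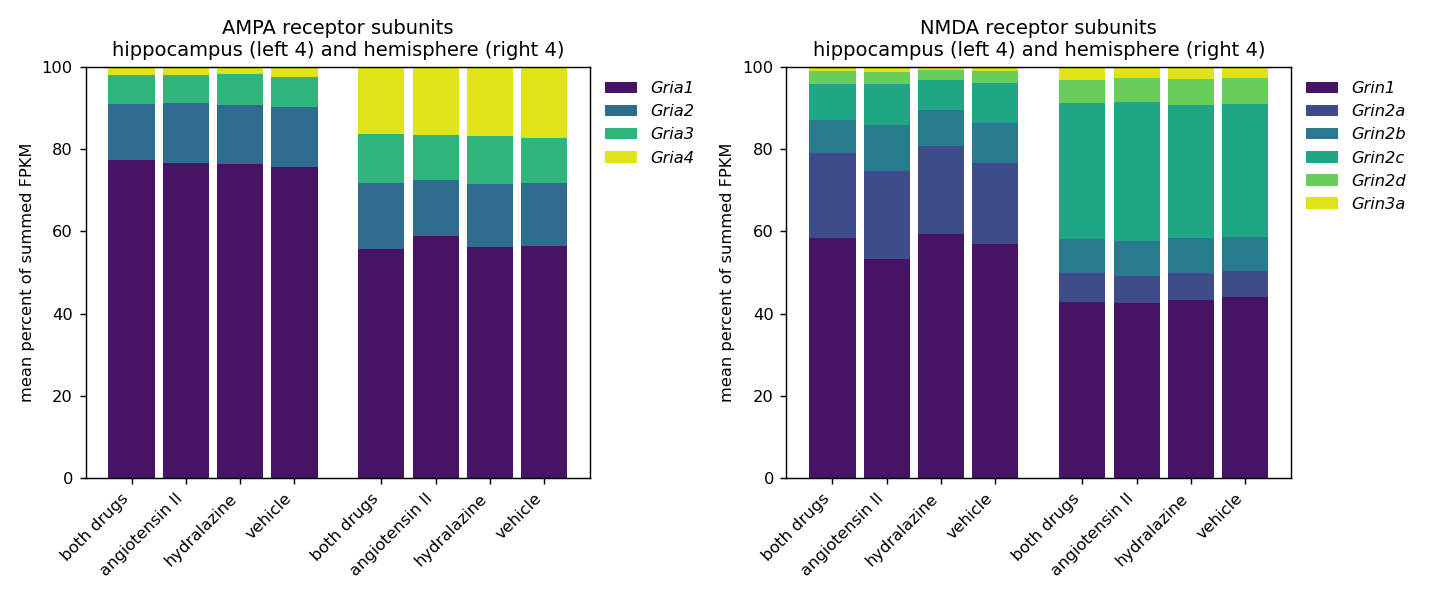
Share of each subunit gene (percent of the summed FPKM of its class, mean of the 6 libraries of a group) in the AMPA class and the NMDA class, stacked to 100%, the 4 hippocampal groups left of the 4 hemisphere groups. Over all groups of a region Gria4 makes up 2.06% of the AMPA sum in the hippocampus and 16.7% in the hemisphere, and Grin2c 8.90% of the NMDA sum in the hippocampus and 32.9% in the hemisphere.

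A ratio between genes within a library does not depend on the scaling of that library, apart from the 0.5 FPKM added to each term here. It can still hold a trend on gene length, and the ratios were not recomputed with that trend removed. The lengths are 17933 bases for Grin2a, 24842 for Grin2b, 6043 for Gria1 and 15548 for Gria2. The Grin2a over Grin2b ratio is widely used as a measure of synaptic maturity, and Gria1 over Gria2 relates to calcium permeability. Both were set as log2((FPKM + 0.5) / (FPKM + 0.5)) and compared by two-sided exact permutation over 924 regroupings of 6 against 6, which cannot give a p under 0.0022, with adjustment over 28 comparisons.

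In vehicle libraries Grin2a over Grin2b averaged 1.01 ± 0.24 in the hippocampus and -0.29 ± 0.26 in the hemisphere (SD, n = 6 each), a difference of 1.30. Grin2a was thus the more abundant of the pair in the hippocampus and Grin2b slightly so in the hemisphere. With both drugs the ratio averaged 1.29 ± 0.23 in the hippocampus and -0.23 ± 0.20 in the hemisphere. With angiotensin II it averaged 0.95 ± 0.30 in the hippocampus and -0.38 ± 0.13 in the hemisphere, and with hydralazine 1.22 ± 0.13 in the hippocampus and -0.35 ± 0.19 in the hemisphere. In all 4 treatments the regions did not overlap (exact permutation p = 0.0022, adjusted p = 0.0087).

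In vehicle libraries Gria1 over Gria2 averaged 2.36 ± 0.11 in the hippocampus and 1.85 ± 0.18 in the hemisphere, a difference of 0.51 (exact permutation p = 0.0022, adjusted p = 0.0087). The same p-values held with both drugs (difference 0.72) and with hydralazine (0.56). In angiotensin II libraries the ratio averaged 2.40 ± 0.19 in the hippocampus and 2.11 ± 0.52 in the hemisphere, and the difference of 0.29 did not pass (exact permutation p = 0.258, adjusted p = 0.424). The wide spread there belonged to hemisphere library 6, without which the difference was 0.50 (adjusted p = 0.0152).

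**Figure D4:**
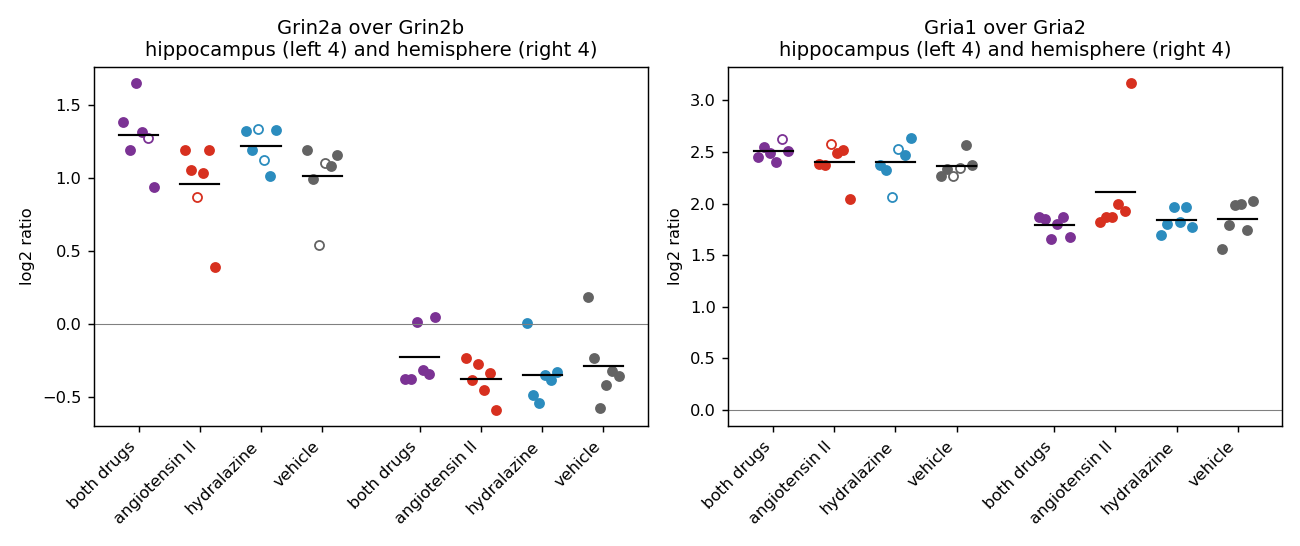
Log2 ratio of Grin2a over Grin2b and of Gria1 over Gria2 in each library, by region (hippocampus left of hemisphere) and treatment; points are libraries open where fewer than 16000 genes were listed above 0, and black lines are group means. Grin2a over Grin2b is above 0 in the hippocampus and mostly below 0 in the hemisphere, and 1 hemisphere angiotensin II library lies far above its group for Gria1 over Gria2.

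Partner genes of the receptors, in lists chosen with earlier results of these data known, were read from the same comparison in vehicle libraries (all genes tested: 42.2% called, median -0.21). Of 23 auxiliary and biogenesis genes of AMPA receptors, 8 were higher in the hippocampus and 8 lower (median 0.22). Cnih2, a cornichon that slows channel closing, averaged 1240 ± 209 FPKM in the hippocampus and 169 ± 21.8 FPKM in the hemisphere (SD, n = 6 each), a log2 difference of 2.86. Cacng8, the transmembrane regulator gamma-8 enriched in hippocampus, averaged 93.3 ± 20.4 FPKM in the hippocampus and 26.3 ± 1.56 FPKM in the hemisphere (1.78). Shisa6, an auxiliary subunit that limits desensitisation, averaged 17.2 ± 3.28 FPKM in the hippocampus and 4.73 ± 0.721 FPKM in the hemisphere (1.74). Olfm1, a secreted olfactomedin found in AMPA receptor complexes, averaged 567 ± 66.6 FPKM in the hippocampus and 212 ± 16.3 FPKM in the hemisphere (1.41). These 4 genes, those of the list with the smallest p, were higher in the hippocampus, as Gria1 and Gria2 were.

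Of 24 scaffold genes, 8 were higher in the hippocampus and 5 lower (median 0.01). Grip2, which binds the GluA2 tail, averaged 1.19 ± 0.77 FPKM in the hippocampus and 5.26 ± 0.65 FPKM in the hemisphere (-1.87), while Lrrtm1 (0.85), Homer2 (0.85) and Dlgap1 (0.81) were higher in the hippocampus. Of 16 kinase, phosphatase and calmodulin genes, 9 were higher and 5 lower (median 0.50). Nrgn, a calmodulin buffer of dendrites, averaged 2756 ± 569 FPKM in the hippocampus and 699 ± 109 FPKM in the hemisphere (1.97), and Ppp3ca, the catalytic subunit of calcineurin, 302 ± 36.3 FPKM in the hippocampus and 91.9 ± 5.67 FPKM in the hemisphere (1.70). Prkcb, a protein kinase C gene, differed by 0.91.

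Of 7 kainate and delta receptor genes tested, 2 were higher in the hippocampus and 4 lower (median -0.72), among them Grik3 (-2.53), Grik1 (-0.87) and Grid1 (-0.72). Of 7 metabotropic receptor genes 2 were higher and 2 lower (median -0.03), with Grm4 at -3.15, Grm8 at -1.48, Grm5 at 0.81 and Grm2 at 0.66. Genes of the co-agonists glycine and D-serine were lower for 5 of 7 (median -1.10), among them Slc6a9, a glycine transporter, at -3.41, Slc6a5, the neuronal glycine transporter, at -3.29, Dao, which degrades D-serine, at -3.20, and Slc7a10 at -1.10. Of 8 glutamate transport genes, 3 were higher and 2 lower (median 0.00): Slc1a1 differed by 1.03, Slc17a7 by 0.79, Slc1a2 by 0.32 and Slc17a6, the vesicular transporter of thalamus and midbrain, by -1.91.

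The RNA editing enzymes that act on receptor transcripts were lower for 2 of 3 (median -1.07). Adarb1, which edits the Gria2 transcript at the site that blocks calcium, averaged 10.5 ± 3.47 FPKM in the hippocampus and 22.0 ± 2.58 FPKM in the hemisphere (-1.07). Adar averaged 2.09 ± 1.49 FPKM in the hippocampus and 19.8 ± 1.25 FPKM in the hemisphere (-3.13). Editing itself cannot be read from gene-level values. Among cell type lists, interneuron markers were higher in the hippocampus for 2 of 8 and lower for 4 (Sst 1.31, Pvalb -1.32, Slc32a1 -1.40), and choroid plexus markers lower for 6 of 8, with sums of 12.8 to 116 FPKM in hippocampal vehicle libraries and 483 to 842 FPKM in hemisphere vehicle libraries. Mitochondrially encoded genes were higher for 8 of 13 (median 0.89), and the part of this shift in the subunit values was not tested.

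The treatments were then compared within each region, the question being which brain genes respond to angiotensin II and whether hydralazine alters that. In the hemisphere, angiotensin II against vehicle, 0 of 10 subunit genes passed, in a fit where 0.0717% of 16747 genes did (12 genes). Their differences ran from -0.22 (Gria2, 95% interval -0.56 to 0.11) to 0.15 (Grin2b), with a median size of 0.05 against 0.09 over all genes tested. In the hippocampus, angiotensin II against vehicle, 0 of 10 passed, with 0% of 15267 genes called by limma and 210 genes at an unadjusted p under 0.05. The differences ran from -0.17 to 0.32, with a median size of 0.16 against 0.15 over all genes. An adjusted p above the threshold does not show that the levels were equal, and the intervals bound what these data allow.

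Gria1 in the hippocampus was the single member whose 95% interval for a treatment difference did not include 0 before adjustment, 0.00 to 0.32 for angiotensin II against vehicle (difference 0.16 ± 0.08). Over all genes it did not pass (limma adjusted p = 1.0). Its lowest, median and highest levels were 136, 146 and 176 FPKM with angiotensin II, and 115, 140.0 and 146 FPKM with vehicle, so the groups overlapped. The high angiotensin II values were those of library 6 (176 FPKM) and library 3 (174 FPKM), which listed few genes. No other angiotensin II library was above 147 FPKM, and the 115 FPKM was vehicle library 5, an outlying library. With both drugs Gria1 was at 139, 147 and 153 FPKM, and with hydralazine at 119, 138 and 145 FPKM. In the hemisphere its medians were 58.0 FPKM with both drugs, 61.8 with angiotensin II, 61.3 with hydralazine and 61.9 with vehicle.

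Gria2 in the hemisphere was at 15.7, 16.9 and 17.5 FPKM with both drugs, at 5.73, 16.3 and 16.9 with angiotensin II, at 14.3, 16.8 and 18 with hydralazine, and at 15.4, 16.2 and 17.0 with vehicle. A single angiotensin II library, number 6, held the 5.73, and without it the angiotensin II difference of -0.22 became 0.01. In the hippocampus Gria2 medians were 25.6 FPKM with both drugs, 27.7 with angiotensin II, 25.9 with hydralazine and 27.3 with vehicle, and angiotensin II library 6 held the highest value, 42.2 FPKM. The labels do not say whether these 2 libraries, which share a number, came from 1 mouse. The angiotensin II effect of Gria2 in the hippocampus minus that in the hemisphere was 0.35, and -0.00 without both of these libraries. Each had the lowest share of mitochondrial reads in its region, 5.74% for the hippocampal library and 2.77% for the hemisphere library, and the part of that in their subunit values was not tested.

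Gria3 in the hemisphere had ranges with both drugs (12.4, 12.6 and 13.5 FPKM) and vehicle (10.9, 11.7 and 12.3 FPKM) that did not overlap, as for 0.549% of all genes. The difference of 0.13 ± 0.10 did not pass (limma adjusted p = 1.0), and over all settings its smallest adjusted p was 0.184. With angiotensin II Gria3 was at 7.11, 12.4 and 12.9 FPKM, and in the hippocampus its medians lay between 12.9 FPKM with angiotensin II and 13.7 FPKM with hydralazine. Gria4 medians in the hippocampus were 3.54 FPKM with both drugs, 3.94 with angiotensin II, 3.76 with hydralazine and 4.05 with vehicle. In the hemisphere they were 16.9 FPKM with both drugs, 17.6 with angiotensin II, 18.5 with hydralazine and 18.3 with vehicle. The medians of Gria4 were thus closer between treatments than between regions.

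Grin1 in the hippocampus had medians of 57.3 FPKM with both drugs, 49.4 with angiotensin II, 50.4 with hydralazine and 51.8 with vehicle, and in the hemisphere between 37.4 FPKM with both drugs and 38.8 with vehicle. Grin2a medians in the hippocampus were 20.6 FPKM with both drugs, 20.6 with angiotensin II, 19.3 with hydralazine and 19.1 with vehicle. In the hemisphere they were 6.07 FPKM with both drugs, 6.25 with angiotensin II, 5.85 with hydralazine and 5.65 with vehicle. Neighbouring treatments overlapped for both genes in both regions. Grin2b in the hippocampus was at 6.67, 8.02 and 8.67 FPKM with both drugs and at 8.10, 9.28 and 18.1 FPKM with angiotensin II, the highest value again being hippocampal library 6. The difference of -0.37 between these groups did not pass (95% interval -0.76 to 0.02, limma adjusted p = 1.0).

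Grin2c in the hippocampus was listed in the 6 hydralazine libraries at 9.04, 7.80, 0, 4.72, 10.2 and 8.86 FPKM, and its lowest, median and highest levels with vehicle were 6.27, 9.37 and 10.3 FPKM. The fitted difference of -0.83 rested on library 3 and did not pass. Gria4, at 3.59, 3.93, 0, 3.31, 4.08 and 4.17 FPKM in those hydralazine libraries, had a fitted difference of -0.70 in the same way. Without that library both genes kept levels with hydralazine that overlapped those with vehicle. In the hemisphere Grin2c medians ran from 28.1 FPKM with both drugs to 29.1 with angiotensin II.

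Grin2d medians in the hippocampus were 2.66 FPKM with both drugs, 2.55 with angiotensin II, 2.76 with hydralazine and 2.52 with vehicle. In the hemisphere they were 4.83 FPKM with both drugs, 5.01 with angiotensin II, 5.25 with hydralazine and 5.39 with vehicle. The ranges of these groups overlapped within each region. Grin3a medians were 1.11 FPKM with both drugs, 1.27 with angiotensin II, 1.01 with hydralazine and 1.19 with vehicle in the hippocampus. In the hemisphere they were 2.68 FPKM with both drugs, 2.65 with angiotensin II, 2.68 with hydralazine and 2.59 with vehicle, and no treatment stood apart.

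**Figure D5:**
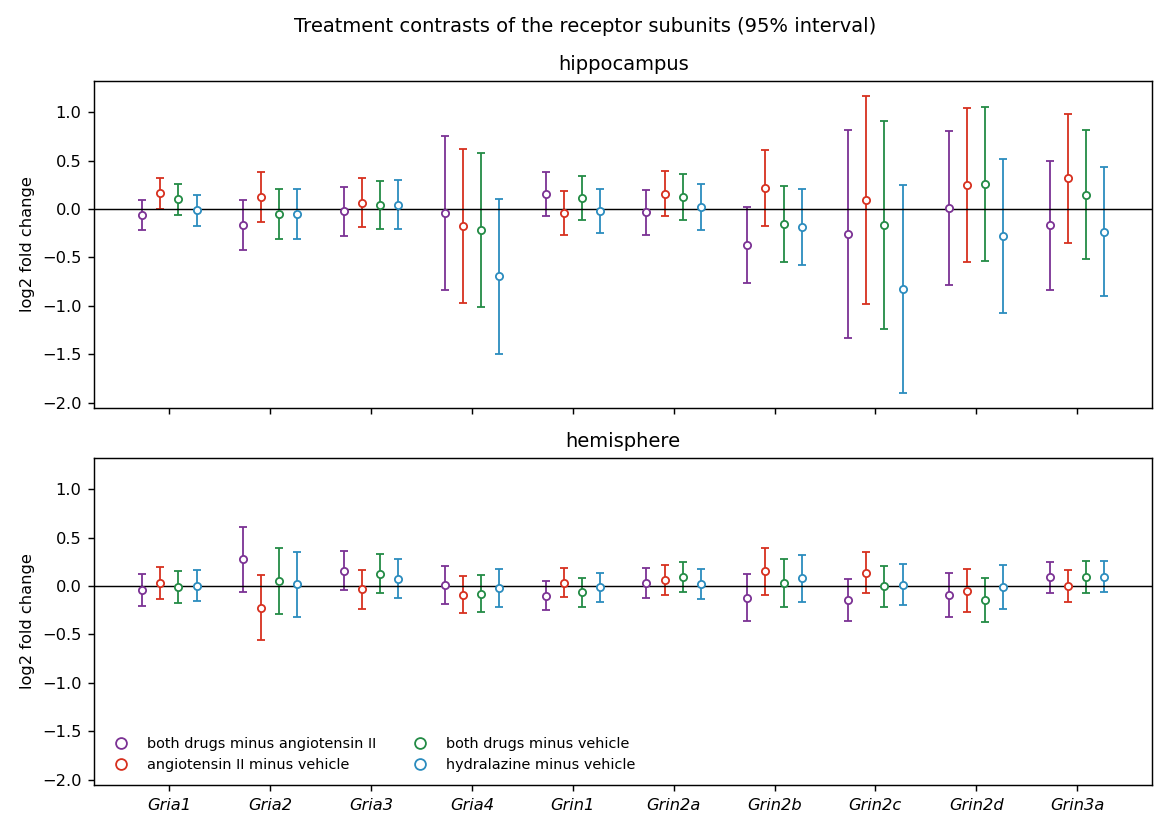
Differences of the 10 subunit genes (log2(FPKM + 0.5), limma estimate with its 95% interval) for 4 contrasts of treatments by colour, hippocampus above hemisphere; open points did not pass the adjusted threshold and the horizontal line is no difference. No member passes, and the widest intervals are those of Gria4, Grin2c, Grin2d and Grin3a in the hippocampus, where hydralazine library 3 lists these genes at 0.

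In the other treatment contrasts 0 of 10 members passed as well, with 0% of all genes called by limma. In the hippocampus 252 genes had an unadjusted p under 0.05 for both drugs against angiotensin II, 911 for both drugs against hydralazine, 303 for both drugs against vehicle, 861 for hydralazine against vehicle and 366 for the interaction of the drugs. In the hemisphere the numbers were 760 for both drugs against angiotensin II, 501 for both drugs against hydralazine, 872 for both drugs against vehicle, 279 for hydralazine against vehicle and 461 for the interaction. The angiotensin II effect did not differ between regions at the threshold for any member (516 genes at an unadjusted p under 0.05). Contrasts that share a group are not independent of each other. The immediate-early genes induced by neuronal activity were the only listed genes called between treatments, 5 of 16 lower with angiotensin II than with vehicle in the hemisphere, such as Arc (-1.82, limma adjusted p = 0.0209).

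Neither ratio passed between treatments (0 of 20 comparisons). The smallest adjusted p, 0.0875, belonged to Gria1 over Gria2 with both drugs against angiotensin II in the hemisphere (-0.32, exact permutation p = 0.0281) and with both drugs against vehicle in the hippocampus (0.15, exact permutation p = 0.0281). Most of the hemisphere difference rested on angiotensin II library 6, where the linear Gria1 over Gria2 ratio was 9.68. Without that library the difference was -0.11. Grin2a over Grin2b with both drugs against angiotensin II in the hippocampus differed by 0.34 (exact permutation p = 0.0455, adjusted p = 0.127).

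How the subunit genes varied from library to library was described in the hemisphere, over 24 libraries with group means removed. These correlations share library, depth and dissection, and are a description only. Gria2 and Gria3 varied together (r = 0.968, and 0.849 without hemisphere angiotensin II library 6), as did Gria1 and Grin2b (0.891, and 0.887 without it) and Gria3 and Grin2a (0.894 and 0.791). Gria1 and Grin2d ran opposite to each other (-0.726 and -0.782). Hemisphere vehicle library 1 and hydralazine library 1 were the lowest of their groups for Gria1 (46.3 and 47.6 FPKM) and Grin2b (4.92 and 5.22 FPKM). They were the highest for Grin2d (6.80 and 7.17 FPKM), and their part in these correlations was not tested. Some pairs with Grin2c depended on hemisphere angiotensin II library 6. Gria2 and Grin2c changed from -0.663 to 0.216 without it, Grin1 and Grin2c from 0.520 to -0.190, and Gria4 and Grin2c from 0.0574 to 0.728. Over the 24 libraries the members thus fell into several patterns, not 1 per receptor class, and those with Grin2c rested in part on that library.

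Among 12047 protein-coding genes, those most like Gria2 were Gpm6a (r = 0.989, and 0.843 without library 6) and Slc4a10 (0.988 and 0.816). Hspa12a was the most like both Gria1 (0.963) and Grin2b (0.956), joined by Kidins220 (0.963) for Gria1 and Gpr26 (0.951) for Grin2b, each with values without library 6 within 0.951 to 0.968. Gria1 and Grin2b were lowest of their groups in hemisphere vehicle library 1 and hydralazine library 1, which were not left out. Gria4 was most like Itpr1 (0.948, and 0.941 without library 6), the calcium release channel of Purkinje cells and other neurons, and Epb41 (0.933, and 0.918 without it). Gria3 was most like Mgea5 (0.976, and 0.867 without it) and Map9 (0.974, and 0.879 without it). Grin1 was most like Adgrb1 (0.952, and 0.861 without it) and Ankrd13d (0.945, and 0.825 without it). Grin2a was most like Gabrb1 (0.909, and 0.815 without it) and Map9 (0.904, and 0.802 without it).

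For the remaining NMDA genes leaving out hemisphere angiotensin II library 6 also lowered the correlations. Grin2c was most like Tsta3 (0.876, and 0.711 without it) and Adamts10 (0.874, and 0.736 without it). Grin2d was most like Vegfb (0.930, and 0.880 without it) and Git1 (0.926, and 0.867 without it). Grin3a was most like Gpr101 (0.881, and 0.812 without it) and Ist1 (0.848, and 0.755 without it).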

How the data were processed

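Total RNA from the hippocampus or the hemisphere was extracted with a column kit and sequenced by a company, per the labels' protocols. FPKM values for 54532 genes in 48 libraries were deposited with gene lengths. The submitters' processing notes name DESeq 1.10.1 and the builds GRCm38 and mm10. The aligner, the counter and its strand setting were not given in the sources used here. The deposited lengths equal the merged exon bases of GENCODE M21 for all 10 members. FPKM times length gave whole reads for 100% of the values checked (tolerance 0.1 read), a check that left out the highest counts. These reads served for depth and for comparing pairs of libraries, not for the tests of expression. Each library matched 1 value column. All 120 pairs of libraries within groups differed beyond sampling noise (chi-square per gene of at least 3.08).

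Values were tested as log2(FPKM + 0.5), which understates changes of low genes, with limma 3.58.1 in R 4.3.3 (trend and robust prior), after a filter that kept genes reaching 0.5 FPKM in 6 or more of the libraries fitted. Within-region fits used 24 libraries and region comparisons all 48, with 1 mean per group. P-values are two-sided, adjusted over all genes tested. Python 3.11.15, pandas 2.3.3, numpy 2.4.6 and matplotlib 3.10.9 made tables, ratios and figures. The fit was tested on simulated data. The members and lists were chosen with earlier results of these data known. Named genes were all members, the 2 genes most correlated with each member, up to 4 genes per partner list with the smallest p between regions in vehicle, and any called between treatments; some genes of the partner lists are not reported here. Same-numbered libraries of the 2 regions did not deviate together (24 pairs, r from -0.21 to 0.04), and the labels do not say whether they are from 1 mouse. Between treatments, same-numbered libraries had r from -0.19 to 0.45 in the hemisphere (36 pairs, 3 over 0.1). In the hippocampus r ran from -0.21 to 0.24 (36 pairs, 8 over 0.1). The highest, 0.45, was between hemisphere vehicle library 1 and hydralazine library 1. Alternatives were other pseudocounts, filters and scalings, library weights, a replicate block, left-out libraries, fits of only the groups compared and a removed length trend.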

Additional observations from a re-analysis of the deposited data

Results flagged for a closer look

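A library stood far from the other 5 of its group in 20 of 80 groups of a subunit gene; chance flags about 1 in 20. Of these, 3 were in hippocampal angiotensin II library 6 and 6 in hemisphere angiotensin II library 6, which are not known to be from 1 mouse. The hippocampal library was the highest for Gria2 (42.2 FPKM), Gria3 (20.1 FPKM) and Grin2b (18.1 FPKM). The hemisphere library was the lowest for Gria2 (5.73 FPKM), Gria3 (7.11 FPKM) and Grin2a (4.47 FPKM), and the highest for Grin1 (53.5 FPKM), Grin2c (46.8 FPKM) and Grin2d (7.95 FPKM).

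Hippocampal vehicle library 5 was the lowest of its group for Gria1 (115 FPKM), Gria2 (19.0 FPKM) and Grin2a (13.8 FPKM) and the highest for Gria4 (6.82 FPKM). Its cerebellar markers summed to 81.9 FPKM, the highest of its group. The hippocampal hydralazine library 3, with the fewest reads, was the lowest for Gria4 (0) and Grin2d (0). Hippocampal library 5 of both drugs, which also lists few genes, was the lowest for Grin2c (2.43 FPKM) and the highest for Grin2d (5.59 FPKM).

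The others were single genes: Grin2d was highest in hippocampal angiotensin II library 3 (4.94 FPKM) and in hemisphere hydralazine library 1 (7.17 FPKM), and Grin3a in hemisphere hydralazine library 2 (3.31 FPKM).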

How the results depend on the processing

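The 8 members called between regions kept their direction in all 26 settings; Grin2b, not called, had a negative difference with hydralazine in 2 of them (lowest -0.05). Members called ranged over alternatives from 7 to 9 with both drugs, 6 to 10 with angiotensin II, 8 to 10 with hydralazine and 8 to 10 with vehicle. No member was called between treatments in any setting (130 results). Same-numbered libraries were not shown to be pairs (2 of 24 hippocampal libraries correlated best with their own number). With the replicate block the region differences of Grin2a over Grin2b were 1.52 with both drugs, 1.33 with angiotensin II, 1.57 with hydralazine and 1.30 with vehicle (exact adjusted p = 0.0875), and those of Gria1 over Gria2 were 0.72 with both drugs, 0.56 with hydralazine and 0.51 with vehicle (exact adjusted p = 0.109); 6 pairs allow no smaller exact p than 0.03125 before adjustment, so the block could not pass. With single libraries left out, Gria1 over Gria2 ran from -0.38 to -0.11 for both drugs against angiotensin II in the hemisphere, passing without angiotensin II library 1 (exact adjusted p = 0.0227). The -0.11 was without angiotensin II library 6, the outlying library for this ratio, and did not pass. Gria1 over Gria2 ran from 0.12 to 0.19 for both drugs against vehicle in the hippocampus, passing without vehicle library 5 (0.0152), and from 0.23 to 0.50 between regions in angiotensin II. Grin2a over Grin2b in the hippocampus ran from 0.22 to 0.41 for both drugs against angiotensin II (0.0404 without library 6 of both drugs) and from 0.19 to 0.35 for both drugs against vehicle (0.0227 without the same library).

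Over all genes, the 12 called in the hemisphere between angiotensin II and vehicle became 2 with only the groups compared, 38 with library weights, and 0 to 20 with single libraries left out. In the hemisphere library weights called 102 genes between both drugs and vehicle, and 1 between both drugs and angiotensin II. They called 6 for both drugs against hydralazine in the hippocampus, and 3 for the region difference of the angiotensin II effect. The replicate block called 1 in the hemisphere for hydralazine against vehicle and for both drugs against hydralazine. Between regions the calls ranged from 6647 to 12827 with both drugs, 5734 to 12764 with angiotensin II, 5222 to 12773 with hydralazine and 6613 to 12483 with vehicle. The median difference of all genes between regions, -0.21 in vehicle, was 0.04 with quantile scaling and -0.01 with the length trend removed. The causes were not tested. The 0 values of Gria4, Grin2c and Grin2d were in the hippocampal library with 1.21 M reads; Grin3a was at 0 there and in a vehicle library with 12.7 M reads.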
